A study of Mus musculus with 8 samples.

Results

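The genes described here are 10 components of the Notch signalling pathway: the receptors Notch1, Notch2 and Notch3, the ligands Jag1, Jag2 and Dll4, and the target genes Hey1, Hey2, Heyl and Hes1. They were taken by their gene name in the array files, and all 10 of the 27729 gene names on the array were found, with 15 probes on 24 spots. Of these 10 members, 8 were measured well enough to be tested, and Jag2 and Dll4 were not.

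Notch receptors are membrane proteins that are activated by Jagged or Delta-like ligands on a neighbouring cell. Proteases then cut the receptor, its inner part moves to the nucleus and joins the DNA-binding protein Rbpj, and genes of the Hes and Hey families are switched on. Hes and Hey proteins are helix-loop-helix repressors of transcription. In the embryonic heart, Notch1 and Dll4 act mainly in the endocardium, the inner cell layer, while Hey1 marks atrial and Hey2 marks ventricular myocardium and the atrioventricular canal lies between them.

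The samples came from hearts of E10.5 mouse embryos (mid-gestation) of the minKGFP line. It carries a bacterial artificial chromosome in which the regulatory region of minK (Kcne1), a potassium channel subunit gene, drives green fluorescent protein. Cells freed with pancreatin and collagenase were divided by flow sorting: GFP-high cells are labelled as conduction system, GFP-low cells as chamber myocardium. Each group had 4 biological replicates on 1-colour arrays, 8 arrays in all, and both groups carried the reporter. The strain, and whether embryos were pooled, were not given in the sources used here. Amplification started from 5 ng of RNA per sort. The samples are bulk cell sorts, so fewer cells of a type and less RNA per cell cannot be told apart.

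The share of spots well above background was 36.3% to 50.7% per array, control spots not counted. The lowest signal that counted as such ran from -3.40 (GFP-low replicate 2) to -1.70 (GFP-high replicate 3) on the log2 scale used here, which is the log2 of the processed signal minus the 75th percentile of its array. Kcne1, which checks the sort, was higher on all 4 GFP-high arrays than on any GFP-low array, at 1.67 ± 0.57 against 0.37 ± 0.39 (SD, n = 4 each), although the difference of 1.29 ± 0.35 (SE) did not pass the test described below (limma adjusted p = 0.202). All 14 cardiomyocyte markers, such as Tnnt2 and Actc1, were well above background on all 8 arrays. Of 15 endocardial markers, 3 (Pecam1, Tek and Eng) were not well above background on any array. Nfatc1, Egfl7, Esam and Flt1 were well above it on all 8 arrays, Cldn5 on 7, and Cdh5 and Kdr on 5. Npr3 was so on 3 arrays, Plvap and Icam2 on 2, and Tie1 and Emcn on 1. The summed signal of the 7 leukocyte markers, in units of each array's 75th percentile, was 11.0 to 15.7 on GFP-high and 3.36 to 5.82 on GFP-low arrays, while Ptprc, Csf1r and Cd52 were not above background anywhere. Its part in the differences below was not tested.

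The sequence of the Hes1 probe is shown because the largest fitted difference among the members rests on this probe alone. Its 60 bases cover 296 bases of mm9 chromosome 16 (30065983 to 30066278, plus strand), so its ends lie on either side of an intron. The Hey2 promoter is shown as the one member window that held the motif bound by Rbpj, searched as GTGGGAA on both strands and printed in capitals.
Hes1 probe: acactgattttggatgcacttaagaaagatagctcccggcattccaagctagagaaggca
Hey2 promoter: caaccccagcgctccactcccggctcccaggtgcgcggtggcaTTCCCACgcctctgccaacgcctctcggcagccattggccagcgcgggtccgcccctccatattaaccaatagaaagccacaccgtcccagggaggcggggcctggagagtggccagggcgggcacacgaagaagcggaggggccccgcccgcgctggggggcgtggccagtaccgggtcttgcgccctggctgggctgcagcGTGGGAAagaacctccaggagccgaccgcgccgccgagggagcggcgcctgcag

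The Hey2 window is from RefSeq (build GRCm38.p6, chr10:30842734-30843033, minus strand), and runs from 250 bases before to 50 bases after the gene's start. It holds the motif 2 times, on the reverse strand at positions -207 to -201 and on the forward strand at -4 to 3, counted from the start. Of 32851 promoter windows of this length, 6.38% held the motif at least 1 time and 0.256% held it 2 or more times. The table had windows for 7 members, and the other 6 (Notch1, Notch2, Notch3, Jag1, Jag2 and Dll4) held 0 matches. Windows of Hes1, Hey1 and Heyl were not used here. A match is a description of letters, not a measured binding site.

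The comparison of GFP-high with GFP-low asks whether Notch components differed between cells labelled as conduction system and cells labelled as chamber myocardium. None of the 8 tested members passed limma with Benjamini-Hochberg adjustment at 0.05, where 0.14% of all 12875 tested genes did (18 genes; 0.0699% higher and 0.0699% lower in GFP-high). The fit did not pair arrays by replicate number. The members' adjusted p ran from 0.413 to 0.995. The 18 genes that passed differed by at least 1.64 on the log2 scale and by at least 7.17 times their SE. The largest member difference was 1.17. These values describe the genes that passed in this unpaired fit and are not a fixed limit of detection. A member that did not pass may still differ between the groups. None of the 8 reached an unadjusted limma p under 0.05, against 14.3% of all tested genes. None had 4 and 4 arrays that did not overlap, against 8.94% of all (5.86% higher and 3.08% lower in GFP-high). Differences (GFP-high minus GFP-low) were positive in 4 members and negative in 4, with a median of 0.01, while the median of all tested genes was 0.16.

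**Figure D1:**
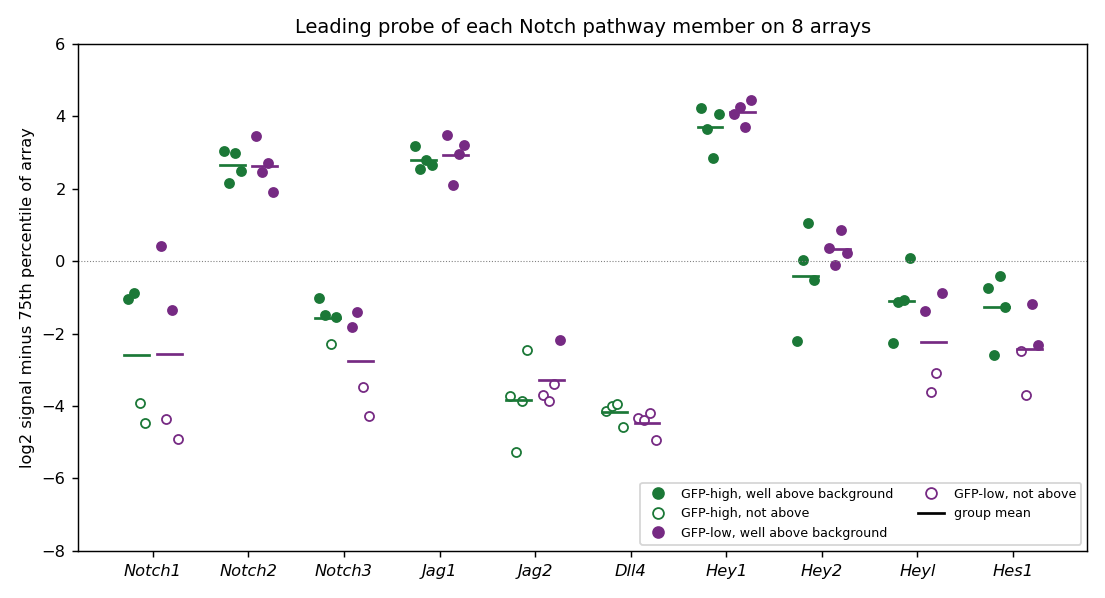
Log2 signal minus the array's 75th percentile (y axis) of the leading probe of each of the 10 members, 1 point per array, with GFP-high in green and GFP-low in purple; filled points were well above background, and bars are group means. Notch2, Jag1, Hey1 and Hey2 are filled on all 8 arrays, Dll4 on none, and the 2 groups overlap in every tested member.

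Among the receptors, Notch2 was measured on all 8 arrays and its groups lay on top of each other. Its brightest probe (mm9 chromosome 3, 97953914 to 97953973) read 3.04, 2.17, 2.98 and 2.49 in GFP-high replicates 1 to 4 and 3.45, 2.45, 2.72 and 1.91 in GFP-low. The highest and the lowest of the 8 values were both GFP-low arrays. The difference was 0.04 ± 0.37 (SE; 95% interval -0.82 to 0.89, or 0.566 to 1.85 times; limma adjusted p = 0.973). The other 2 probes of Notch2 were dim: the probe at 97952843 to 97952902 gave a difference of 0.32 and was above background on 6 arrays. The probe at 97951205 to 97951264 gave 1.13 with arrays that did not overlap, but it was above background on only 3 arrays and was not tested.

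Notch1 split the arrays within each group. Its main probe (chromosome 2, 26314772 to 26314830) is printed on 10 spots of each array, which gives a measure of spot error. It averaged -1.05 and -0.87 on GFP-high replicates 1 and 2, and -3.92 and -4.47, below background, on replicates 3 and 4. On GFP-low it averaged 0.42 on replicate 1 and -1.36 on replicate 3, and -4.35 and -4.91, below background, on replicates 2 and 4. Notch1 was therefore detected on 2 arrays of each group, on all kept spots, and on none of the spots of the other 4 arrays. The SD between spots of 1 array was 0.05 to 0.44, while the SD between arrays was 1.88 in GFP-high and 2.52 in GFP-low (n = 4 each). The group difference was -0.02 ± 1.33 (SE; 95% interval -3.07 to 3.02; limma adjusted p = 0.995), so these arrays bound it only loosely. It was 1.01 within slide 1 and -1.06 within slide 2. Readings below background enter the SDs and the interval given above. With values near background raised to a common floor, the group difference was -0.25 ± 0.51 (SE). The second Notch1 probe (26314830 to 26314889) was above background on the same 4 arrays and gave 0.53.

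The number of the 15 endocardial markers well above background was 7, 6, 5 and 5 on GFP-high replicates 1 to 4, and 9, 7, 12 and 7 on GFP-low replicates 1 to 4. The 2 GFP-low arrays on which Notch1 was detected had the highest numbers, 9 and 12. In GFP-high the 2 arrays with Notch1 had 7 and 6 markers and the 2 without it had 5 each. The share of all spots above background on the GFP-high arrays was 48.4%, 48.8%, 36.3% and 42.7%, so there the marker number was also higher on the 2 arrays with more detected spots, and on GFP-low it was 40.5%, 50.7%, 45.6% and 44.3%. The summed endocardial signal did not follow Notch1 in GFP-high, at 5.71, 5.21, 6.84 and 5.41, where the highest sum was on replicate 3, without Notch1. In GFP-low it was 8.15, 4.33, 7.54 and 4.55, highest on the 2 arrays with Notch1. Of the 15 markers, 0 passed the test between groups. The part of endocardial cells in the Notch1 signal was not tested.

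**Figure D2:**
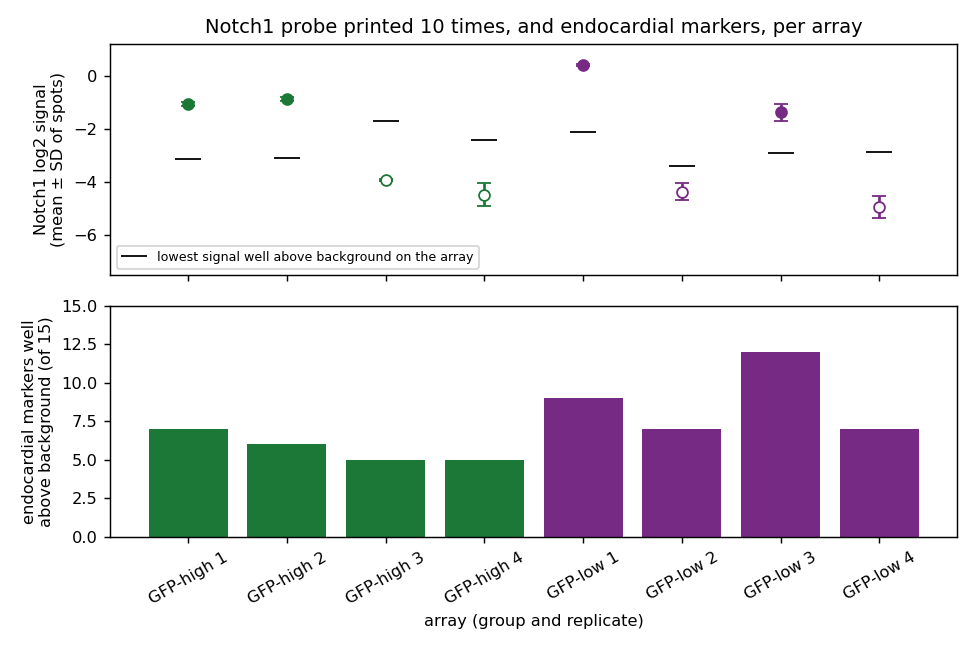
Upper panel: log2 signal of the Notch1 probe printed on 10 spots (mean and SD of the kept spots; filled where the spots were well above background), with each array's lowest signal above background as a dash. Lower panel: number of 15 endocardial markers above background on the same array. Notch1 is on in 2 arrays per group, and its 2 GFP-low arrays hold the highest marker counts, 9 and 12.

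Notch3, a receptor best known from the mural cells of vessels, read -1.01, -1.49, -2.28 and -1.54 in GFP-high (chromosome 17, 32257848 to 32257907). It read -1.81, -1.41, -3.48 and -4.27 in GFP-low. The probe was above background on 3 arrays of GFP-high and 2 of GFP-low, and the groups overlapped because GFP-low replicates 1 and 2 lay among the GFP-high values. The difference was 1.16 ± 0.64 (SE; 95% interval -0.30 to 2.63; limma adjusted p = 0.426). It was 0.36 within slide 1 and 1.97 within slide 2, 0.65 without GFP-low replicate 4, and 0.19 with values near background raised to a common floor. With slide as a term the unadjusted limma p was 0.0270 and the adjusted p 0.275. The summed signal of the 7 smooth muscle and pericyte markers ran from 204 to 341 on GFP-high and from 123 to 319 on GFP-low arrays. On GFP-low replicates 1 to 4 it was 248, 291, 123 and 319. The part of mural cells in the Notch3 signal was not tested.

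Among the ligands, Jag1 was the one measured on all 8 arrays. Its brightest probe (chromosome 2, 136907433 to 136907492) read 3.18, 2.54, 2.79 and 2.66 in GFP-high and 3.49, 2.10, 2.96 and 3.20 in GFP-low. All GFP-high values lay inside the GFP-low range. The difference was -0.15 ± 0.34 (SE; 95% interval -0.92 to 0.63, or 0.527 to 1.54 times; limma adjusted p = 0.853). The second probe of Jag1 (136908942 to 136909001), detected on 2 arrays of GFP-high and all 4 of GFP-low, gave 0.22.

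Jag2, another Jagged ligand, was above background on 1 array, GFP-low replicate 4, at -2.17 (chromosome 12, 114146887 to 114146946). Its other arrays read -5.26 to -2.45 and were not well above background, and no fold is given. Dll4, the main ligand of endothelial cells, was not well above background on any of the 8 arrays (chromosome 2, 119160779 to 119160838), with readings from -4.94 to -3.94.

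Among the targets, Hey1 was bright on every array (chromosome 3, 8663432 to 8663491). It read 4.23, 3.65, 2.86 and 4.05 in GFP-high and 4.08, 4.25, 3.70 and 4.46 in GFP-low. GFP-high replicate 3 was the lowest of the 8 arrays, and the other values overlapped. The difference was -0.42 ± 0.35 (SE; 95% interval -1.22 to 0.37, or 0.429 to 1.29 times; limma adjusted p = 0.581). Without GFP-high replicate 3 it was -0.14.

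Hey2, the ventricular member, read -2.19, 0.05, 1.05 and -0.51 in GFP-high (chromosome 10, 30552729 to 30552788). It read 0.38, -0.11, 0.86 and 0.22 in GFP-low. Both the highest and the lowest of the 8 arrays were GFP-high, and the SD was 1.36 in GFP-high against 0.41 in GFP-low (n = 4 each). The pooled within-group SD of Hey2, 1.0, was larger than that of 93.8% of the 9016 genes measured on all arrays, while those of Hey1 (0.49), Jag1 (0.47) and Notch2 (0.54) lay at 53.0%, 49.8% and 60.5%. The Hey2 difference was -0.74 ± 0.63 (SE; 95% interval -2.17 to 0.69; limma adjusted p = 0.590). It was -0.14 without GFP-high replicate 1.

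Hey1 and Hey2 are known from the chambers on either side of the atrioventricular canal, so their ratio within each array was compared between the groups, which does not depend on array scaling. The log2 of Hey1 over Hey2 was 0.32 higher in GFP-high than in GFP-low, with an SD of 1.92 in GFP-high and 0.69 in GFP-low (n = 4 each). This difference was smaller than the spread (exact two-sided permutation test over 70 assignments, p = 0.771; the smallest possible is 0.0286). Without GFP-high replicate 1 it was -0.46 and without GFP-high replicate 3 it was 1.08. For context, Tbx2, a repressor of the chamber programme in canal myocardium, had a difference of 0.63 ± 0.23 (SE, limma adjusted p = 0.294) with arrays that did not overlap. Nppa, a chamber gene, had -0.89 ± 0.22 (0.186), with arrays that did not overlap either. Tbx20, a heart T-box factor, had -0.97 ± 0.36 (0.294), with arrays that overlapped. Bmp2, a canal growth factor, had 2.82 ± 1.12 (0.317) and was above background on 6 arrays; its difference was 1.40 with the common floor and 1.26 with normexp background correction, which models the background of each array.

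Hes1, the broadly used Notch target, read -0.73, -2.59, -0.41 and -1.28 in GFP-high and -2.48, -3.70, -1.19 and -2.32 in GFP-low. It was well above background on all 4 GFP-high arrays and on GFP-low replicates 3 and 4. GFP-high replicate 2 lay below 3 of the GFP-low arrays, so the groups overlapped. The difference was 1.17 ± 0.62 (SE, 2.25-fold; 95% interval -0.25 to 2.58; limma adjusted p = 0.413), and 13% of all tested genes had a larger difference in either direction. It was 1.42 within slide 1 and 0.91 within slide 2, and 0.74 without GFP-low replicate 2. With values near background raised to a common floor it was 0.54, and with normexp background correction it was 0.69.

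Heyl, a relative of the Hey genes known from vascular smooth muscle, read -2.25, -1.14, -1.08 and 0.10 in GFP-high (chromosome 4, 122925488 to 122925547). It read -1.38, -3.62, -3.08 and -0.88 in GFP-low, where replicates 2 and 3 were below background. GFP-low replicates 1 and 4 fell within the GFP-high range. The difference was 1.15 ± 0.71 (SE; 95% interval -0.47 to 2.77; limma adjusted p = 0.475), 0.69 without GFP-low replicate 2, 0.75 without GFP-high replicate 4 and 0.46 with the common floor. The second Heyl probe (122926975 to 122927034) was above background on 1 array and gave -0.70, so the mean of both probes differed by 0.22.

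**Figure D3:**
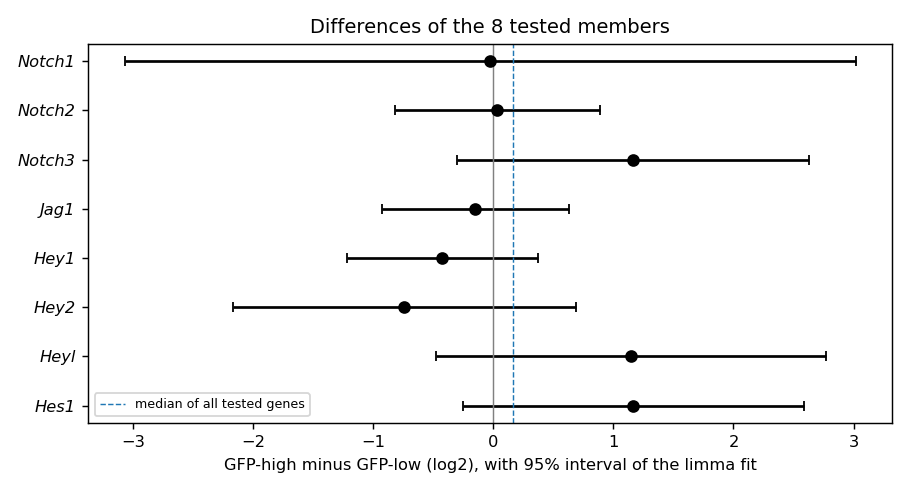
Difference of GFP-high minus GFP-low on the log2 scale (x axis) for the 8 tested members, with the 95% interval of the limma fit; the dashed line is the median of all tested genes, 0.16. Every interval includes 0. Those of Notch2, Jag1 and Hey1 are the narrowest, and that of Notch1, from -3.07 to 3.02, is the widest.

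The other genes of the pathway were taken as a list of 61 genes by role, of which 60 had a probe and 46 were tested. None of the 46 rose or fell in limma over all genes, and 9 (19.6%) had an unadjusted p under 0.05, against 14.3% of all tested genes. Arrays did not overlap in 8 (17.4%), against 8.94% of all. Values were positive in 30 of 46 (65.2%), against 62.1% of all tested genes, with a median of 0.26 against 0.16.

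Of 9 genes that act in receptor proteolysis, 7 had positive values and the median was 0.52. Psen2, a catalytic subunit of the gamma-secretase that releases the inner part of Notch, read 4.02, 3.86, 2.99 and 4.23 in GFP-high and 2.53, 1.87, 2.43 and 1.64 in GFP-low. Every GFP-high array lay above every GFP-low array. The difference was 1.66 ± 0.35 (SE; limma adjusted p = 0.145; mm9 chromosome 1, 182157166 to 182157225), 1.74 within slide 1 and 1.58 within slide 2. Ncstn, the nicastrin subunit of the same complex, read 0.66, 0.30, 0.41 and 0.94 in GFP-high and -0.27, -0.96, -0.57 and 0.16 in GFP-low. Its arrays did not overlap either, and the difference was 0.99 ± 0.30 (SE, limma adjusted p = 0.241).

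Of 11 tested genes of repression, 8 had positive values and the median was 0.33. Tle2, a corepressor of the Groucho family that Hes proteins recruit, read 1.79, 2.04, 1.37 and 2.17 in GFP-high and 0.38, -0.14, 0.60 and -0.96 in GFP-low. Its arrays did not overlap, and the difference was 1.87 ± 0.38 (SE, limma adjusted p = 0.138; chromosome 10, 81053035 to 81053094). Kdm5a, a histone demethylase, went the other way at -1.90 ± 0.55 (0.232) with arrays that did not overlap. Its leading probe was above background on only 4 arrays, and its 4 other probes gave -0.31, -0.28, 0.59 and 0.82.

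Of 10 tested genes of endocytosis and turnover, 4 had positive values and the median was -0.17. Mib2 and Neurl1b encode ubiquitin ligases, and such enzymes act on ligand uptake. Mib2 read 0.02, -0.42, 0.05 and 0.36 in GFP-high and -0.96, -1.41, -1.72 and -1.0 in GFP-low. Neurl1b read 4.84, 4.50, 4.30 and 4.16 in GFP-high and 3.8, 2.79, 3.0 and 3.59 in GFP-low. In both genes all GFP-high arrays lay above all GFP-low arrays. The differences were 1.28 ± 0.28 for Mib2 (SE, limma adjusted p = 0.157) and 1.16 ± 0.31 for Neurl1b (0.195). Their paralogues Mib1 and Neurl1a, named after their values were seen, went the other way, with arrays that overlapped. Mib1 had -0.69 ± 0.32 (0.358) and Neurl1a had -0.30 ± 0.39 (0.737).

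**Figure D4:**
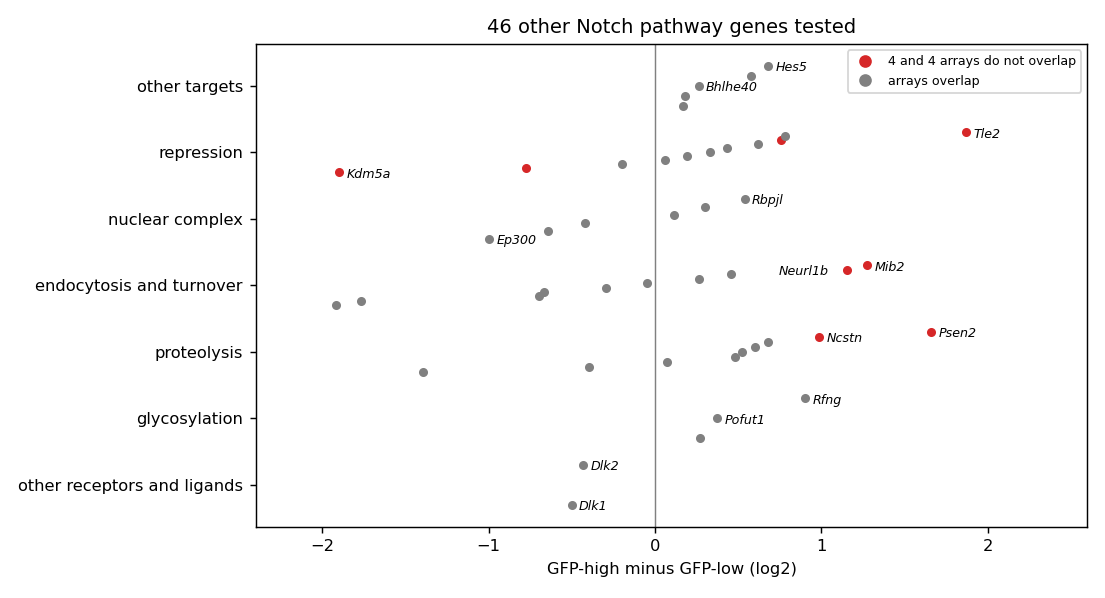
Difference of GFP-high minus GFP-low on the log2 scale (x axis) for the 46 tested genes of the pathway list by role (y axis), 1 point per gene; red points have 4 and 4 arrays that do not overlap. The named red points are Psen2, Ncstn, Mib2, Neurl1b and Tle2 to the right of 0 and Kdm5a to the left.

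In the remaining roles no gene had arrays that did not overlap. Values were positive in 3 of 6 genes of the nuclear complex (median -0.15), with Rbpjl, a paralogue of Rbpj, at 0.54 ± 0.26 (SE, limma adjusted p = 0.376) and the acetyltransferase gene Ep300 at -0.99 ± 0.71 (0.533). Rbpj itself, named for its role after its values were seen, had -0.64 ± 0.50 (0.559). Glycosylation genes had 3 of 3 positive values, with the fringe gene Rfng at 0.90 ± 0.53 (0.456) and the fucosyltransferase gene Pofut1 at 0.37 ± 0.33 (0.601). Of the genes listed as other targets 5 of 5 tested were positive (Hes2, Hes5, Hes6, Bhlhe40 and Bhlhe41), where 62.1% of all tested genes were. Hes2 (0.17 ± 0.32), Hes6 (0.18 ± 0.25) and Bhlhe41 (0.58 ± 1.07) had differences below their SE and changed sign between the slides. Hes5 and Bhlhe40 were positive within both slides. Hes5 had 0.68 ± 0.33 (0.382) and the helix-loop-helix gene Bhlhe40 had 0.26 ± 0.34 (0.725). The Delta-like relatives Dlk1 and Dlk2 had -0.50 ± 0.60 (0.707) and -0.43 ± 0.39 (0.614).

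The genes whose pattern was most like that of a member were sought among 8120 named non-member genes measured on all 8 arrays, by the mean absolute difference of log2 values over the 8 arrays after each gene's own mean was subtracted. For Hes1 these were Foxo6 (0.30), Echdc3 (0.34) and Zfp655 (0.38), where the median over all candidates was 0.99. For Hey1 they were Ddt (0.15), Cdt1 (0.15) and Wrap53 (0.16), with a median of 0.54. For Hey2 they were Ppp1r2 (0.17), Sypl (0.18) and Shcbp1 (0.18), with a median of 0.85.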

How the data were processed

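RNA of 4 GFP-high and 4 GFP-low sorts was measured on 1-colour Agilent arrays. The files deposited by the authors hold spot intensities; per the file headers, Agilent Feature Extraction (10.5.1.1 in the submitters' processing notes) subtracted background, detrended and replaced the lowest values by surrogates (34.8% to 49.4% of non-control spots), and build mm9 gives the coordinates. Slides and scans coincided: replicates 1 and 2 of each group were on slide 1, replicates 3 and 4 on slide 2. The table of the whole series held identical intensities. The number of arrays limits the precision.

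Log2 of the processed signal minus the array's 75th percentile of non-control spots was used, without control and outlier spots, with spots of 1 probe averaged (R 4.3.3, limma 3.58.1). For Notch1, 2 of the 10 spots on GFP-low replicate 2 were left out as outliers. Of 41174 probes, 33070 received a current symbol from the table of assembly GRCm38.p6. The probe with the highest mean signal led each gene, and genes with that probe detected above background on 4 or more of 8 arrays were tested (12875) with lmFit and eBayes, a model of group alone, and Benjamini-Hochberg adjustment. The fit was tested on simulated data. Background correction, scaling, floor, filter, probe rule, slide and replicate blocks, trend and left-out arrays were varied.

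The members and lists were chosen with earlier results of these data known. All members were named. Of the other pathway genes, the 2 with the smallest p per role were named. Rbpj, Mib1 and Neurl1a were added after their values were seen. For Hes1, Hey1 and Hey2, the 3 genes most alike were named. Marker lists not described in the report were cushion mesenchyme (median difference -0.44), epicardium (0.37), neural crest and neuron (0.11) and erythroid (-0.03), with 0 members past the threshold in each.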

Additional observations from a re-analysis of the deposited data

How the results depend on the processing

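None of the 172 member differences computed under the alternatives passed limma at an adjusted p under 0.05, and no gene of the pathway list passed under the alternatives run for it, which leave out the test of each probe on its own. Sign held under all alternatives run for Notch3, Hey1, Hey2, Heyl and Hes1 but not for Notch1, Notch2 and Jag1. Many alternatives share arrays. Those for slide term, replicate block, trend and detection filter leave a member's difference unchanged, so they could not change its sign. The values counted for each probe on its own are those of the leading probe. The second Heyl probe, at -0.70, is not among them. The differences ranged from 0.51 to 1.61 for Hes1, 0.22 to 1.60 for Heyl, 0.19 to 1.97 for Notch3, -0.62 to -0.14 for Hey1 and -1.22 to -0.14 for Hey2. The count of all tested genes past the threshold, 18, was 0 with median scaling, 4 with the 75th percentile of probes detected on all arrays, 42 with the common floor, 3 without a detection filter, 11 with only genes detected on all arrays, 7 with each probe on its own, 11 with slide as a term, 0 within slide 1, 0 within slide 2 and 0 to 7 without single replicates. With the replicate block it was 0. The Hes1 difference under this block, 1.17, had an unadjusted limma p of 0.00476 and an adjusted p of 0.180. No other member had an unadjusted p under 0.05, while 2381 of all tested genes did. The labels do not say what a shared number means. The deviations of same-numbered arrays correlated at 0.11, 0.15, 0.30 and 0.06. The best correlation of 7 of 8 arrays was with their own number, a hint of pairing. As 1 of the 4 correlations was not above 0.1, the fit without the block was kept. The SEs, intervals and permutation test given further above are therefore unpaired. With the block the SE of every tested member was smaller, for Hes1 0.25 against 0.62. Hes1 was higher in GFP-high in 4 of 4 same-numbered pairs, and the share of all tested genes with 4 of 4 is not given here. Kcne1 passed with the mean of all its probes (2.06, adjusted p = 0.0380). The series table gave the same intensities and was not run again. Median differences of all genes lay between 0.05 and 0.20 over the alternatives that keep all arrays. Dim signals limit Notch1, Notch3, Heyl and Hes1, which were below background on 2 to 4 arrays.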
